A study of Mus musculus with 6 samples.

Results

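Hspd1, Hspe1, Hspa9, Trap1, Lonp1, Clpp, Clpx, Afg3l2, Spg7 and Htra2 encode chaperones and proteases that work inside mitochondria. They were chosen by name, as the 10 rows with these symbols of the 23282 gene rows in the count data of each mouse. Each symbol stood on 1 row, and all 10 genes passed the filter on low counts, among 12995 genes tested. The counts came from total interscapular brown adipose tissue (BAT) of male C57BL/6N mice at 5 weeks of age, 3 wild-type (WT) and 3 Letmd1 KO, sequenced with QuantSeq, a method that counts mRNAs by their 3′ ends. Letmd1 encodes a protein of the mitochondria of brown fat, and the comparison asked how its loss changed the transcriptome of BAT. The KO mice were homozygous for a null allele of the knockout-first kind, with a lacZ and neomycin resistance cassette inside Letmd1, derived from 1 clone of embryonic stem cells. The allele was present in the whole body, so effects of its loss in BAT and in other tissues cannot be told apart.

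Most mitochondrial proteins are made in the cytosol and cross the mitochondrial membranes unfolded. In the matrix, mitochondrial HSP70 (Hspa9) pulls them in, and the chaperonin HSP60 (Hspd1) with its lid HSP10 (Hspe1) folds them, while TRAP1 is the mitochondrial member of the HSP90 family. LONP1 and the CLPXP complex degrade damaged or surplus matrix proteins, the m-AAA protease of AFG3L2 and SPG7 works in the inner membrane, and HTRA2 works in the intermembrane space. Brown adipocytes are packed with mitochondria that produce heat through the uncoupling protein UCP1, and that import and fold most of their proteins.

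In GENCODE vM21 on GRCm38, Hspd1 lies on the minus strand of chromosome 1 from 55077835 to 55088243 and Hspe1 on the plus strand from 55088132 to 55091307. The genes of this chaperonin pair are thus head to head, and their annotated spans share 112 bases at their 5′ ends. Promoter windows from 250 bases before to 50 bases after each start were taken from RefSeq on GRCm38.p6, and matched 7 of the 10 genes with 8 windows. Hspa9, Afg3l2 and Htra2 had none in the table. The Hspe1 window (chr1:55087898-55088197, plus strand) is shown because it shares 285 bases with an Hspd1 window (chr1:55087883-55088182, minus strand), and Hspe1 was called lower while Hspd1 was not. The Lonp1 window (chr17:56626854-56627153, minus strand) is shown because Lonp1 had the largest change of the 10 genes. Capitals mark the letters of a heat shock element (GAANNTTC or TTCNNGAA) and of the core of an estrogen-related receptor site (AAGGTCA), searched on both strands.
Hspe1: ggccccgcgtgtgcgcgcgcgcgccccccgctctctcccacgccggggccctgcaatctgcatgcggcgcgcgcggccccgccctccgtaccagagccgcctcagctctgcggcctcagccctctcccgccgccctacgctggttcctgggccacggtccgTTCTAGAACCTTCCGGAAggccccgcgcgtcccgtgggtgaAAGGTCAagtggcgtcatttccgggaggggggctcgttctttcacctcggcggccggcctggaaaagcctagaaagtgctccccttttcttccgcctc
Lonp1: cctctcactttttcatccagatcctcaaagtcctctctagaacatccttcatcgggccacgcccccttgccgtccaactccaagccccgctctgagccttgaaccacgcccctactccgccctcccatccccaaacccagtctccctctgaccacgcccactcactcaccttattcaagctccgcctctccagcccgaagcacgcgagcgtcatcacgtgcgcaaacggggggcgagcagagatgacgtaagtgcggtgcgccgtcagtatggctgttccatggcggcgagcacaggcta
The Hspe1 window holds overlapping heat shock letters that start 89, 84 and 79 bases before the start, and AAGGTCA 48 bases before it. The Lonp1 window holds none of the motifs searched, which also included TGATGNAA, the letters of the amino acid response element, and GCGCATGCG, the core of an NRF1 site. Heat shock letters occurred in 3 of the 8 windows (Clpp, Hspd1 and Hspe1) and in 15.1% of all 32851 promoter windows. The estrogen-related receptor core occurred in 3 (Hspd1, Hspe1 and Trap1) and in 4.72% of all, the NRF1 core in 1 (Clpx) and in 1.75% of all, and TGATGNAA in 0 and in 3.97% of all. The Hspd1 and Hspe1 matches are the same letters of the shared stretch read on opposite strands, so both counts hold that stretch 2 times. A match of letters does not show a bound site.

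Libraries held between 6669577 and 14574273 counts, so that a floor of 3 counts was between 0.176 and 0.397 CPM. CPM here means counts scaled to a common library size by TMM in edgeR, whose factors were 0.852 to 0.886 for WT and 1.13 to 1.17 for KO mice. Every member was far above that floor, the least abundant being Htra2 with 276 to 599 counts per mouse. The check of the deleted gene gave 5658, 6490 and 5266 Letmd1 counts in the WT mice and 0, 0 and 1 in the KO mice, which matched all 6 labels. Pairs of mice of 1 genotype differed by more than sampling noise, with a chi-square per degree of freedom of 12.1 to 36.3.

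Lonp1 and Hspa9 were higher in Letmd1 KO BAT, and Hspe1, Trap1, Clpp, Clpx, Afg3l2 and Spg7 were lower. Hspd1 and Htra2 did not pass the test. Lonp1 had the largest change, 2.82-fold upward, and Afg3l2 the most negative, a log2 fold change of -0.88 from KO minus WT. Of the 10 genes, 2 were higher, beside 23.7% of all genes tested, and 6 were lower, beside 22.3%, where a call needs a Benjamini-Hochberg adjusted p below 0.05 in the quasi-likelihood test of edgeR. A change in either direction was called for 46.0% of all genes tested. The CPM of the genotypes did not overlap for 8 of the 10 genes, beside 57.3% of all genes tested. The median of the log2 fold changes was -0.53 for these genes, and 0.03 for all genes tested. The plot of CPM by mouse shows all 60 values.

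**Figure D1:**
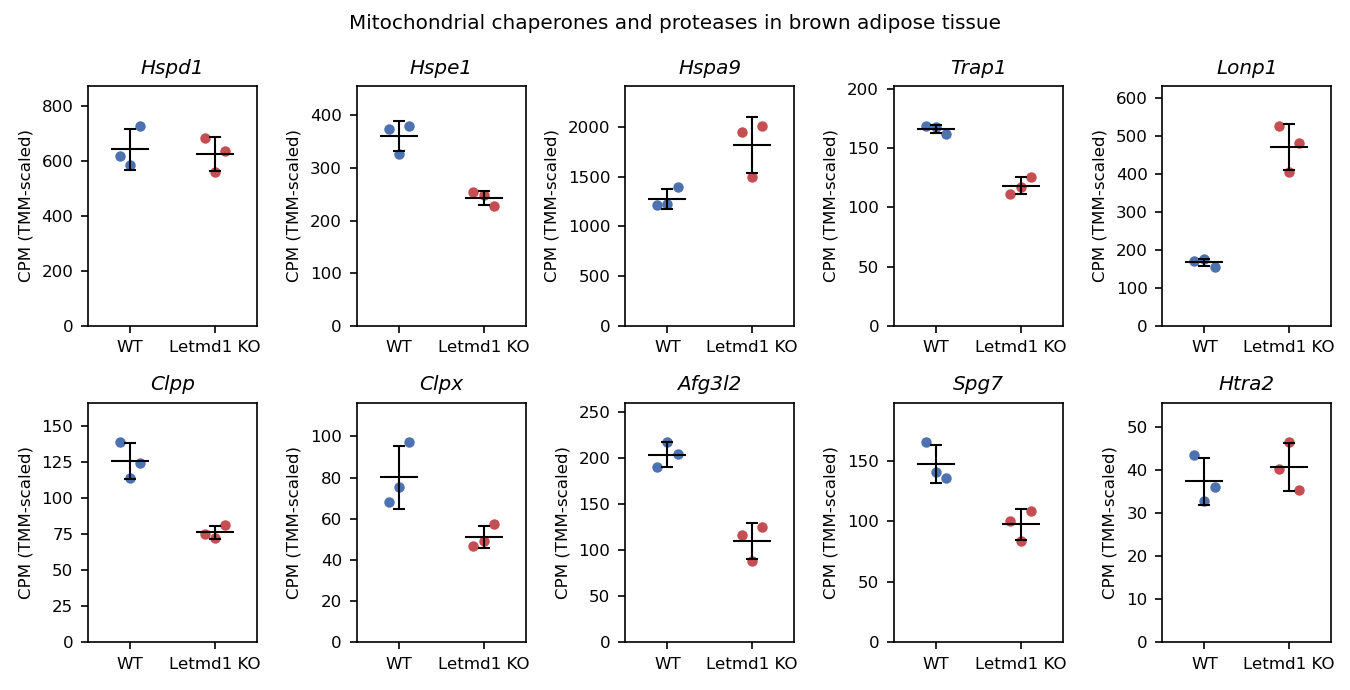
CPM after TMM scaling (vertical axes, linear, from 0) of each gene in 3 WT (blue) and 3 Letmd1 KO (red) mice, with points for single mice, long lines for means and bars for the SD. The KO mice lie above all WT mice for Lonp1 and Hspa9, below all of them for Hspe1, Trap1, Clpp, Clpx, Afg3l2 and Spg7, and overlap them for Hspd1 and Htra2, where KO replicate 2 lies outside the WT range. The Trap1, Hspe1, Clpx and Spg7 calls are lost and Hspd1 and Htra2 pass as higher when libraries are scaled by their size alone.

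Marker genes of the cell types of the depot differed between the genotypes too, where 22.3% of all genes tested were lower and 23.7% higher. Summed CPM of 10 brown adipocyte markers, all tested and 8 of them lower, ran from 15084 to 16694 in WT and from 2519 to 3984 in KO BAT. Summed CPM of 6 pan-adipocyte markers, all 6 lower, ran from 35702 to 40616 and from 12359 to 18004. Macrophage markers (13 of 13 higher) summed to 185 to 262 CPM in WT and 1522 to 3681 in KO BAT, and fibroblast markers (6 of 6 higher) to 2143 to 2843 and 5852 to 10160. Nerve and Schwann cell markers (5 of 6 higher) summed to 223 to 271 and 296 to 458, and endothelial markers (3 of 6 lower) to 413 to 546 and 294 to 362. Skeletal muscle markers (3 of 14 tested higher) spanned 6.00 to 382 in WT and 294 to 1181 in KO BAT, highest in WT replicate 2 and KO replicate 3. The 4 erythroid markers did not pass the test and overlapped, at 9714 to 18044 and 9831 to 13305. In every one of these lists no marker was at 0 in all mice. Among the most abundant markers, Ucp1 had a log2 fold change of -4.05, Fabp4 of -1.42, Kdr of -0.99, Hba-a1 of -0.21, S100b of 0.34, Col1a2 of 1.53, Acta1 of 2.38 and Lgals3 of 6.05, of which Hba-a1, S100b and Acta1 did not pass the test. In bulk tissue, fewer cells of a type and less RNA per cell cannot be told apart, and the part of these cell types in the results was not tested. Without WT replicate 2 and KO replicate 3, an alternative chosen after seeing the data, 1 of the 10 genes was higher (Lonp1) and 6 were lower. The shares of all genes tested were then 15.3% higher and 14.8% lower.

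HSP60 and HSP10 assemble into 1 folding chamber, and of their mRNAs Hspe1 was called lower while Hspd1 was not. Hspd1 had 616, 583 and 726 CPM in WT BAT and 682, 559 and 635 in KO BAT. These values overlapped (642 ± 74.8 and 625 ± 61.8 CPM, SD, n = 3), with a log2 fold change of -0.04 (95% confidence interval -0.33 to 0.26, adjusted p = 0.839). Hspe1 had 374, 327 and 379.9 CPM in WT BAT and 254, 249 and 228 in KO BAT, so that every KO mouse was below every WT mouse. Its mean fell from 360.3 ± 28.8 to 243 ± 13.7 CPM, a log2 fold change of -0.57 ± 0.11 (SE, adjusted p = 0.00251). GENCODE names 5 pseudogenes after Hspd1, 6 after Hspe1 and 1 after Hspa9, and 0 after the other 7 genes. Pseudogenes under unrelated names were not searched. The authors counted reads with several alignments, and rows of the named pseudogenes were not in the count data. Reads shared with the named copies were thus not told apart for Hspd1, Hspe1 and Hspa9.

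Hspa9 (chromosome 18 from 34937414 to 34954357, minus strand) encodes mitochondrial HSP70, the motor of import and a folding chaperone of the matrix. It was the most abundant of the 10 genes, and 0.916% of the genes tested had more CPM in WT BAT. Its CPM was 1215, 1225 and 1393 in the WT mice and 1953, 1500.3 and 2010.2 in the KO mice. KO replicate 2 was close to the highest WT mouse, while the other 2 KO mice were well above, and the groups did not overlap. The mean rose from 1278 ± 100.1 to 1821 ± 279 CPM, 1.43-fold (log2 fold change 0.51 ± 0.15 SE, adjusted p = 0.0199). The call was lost without WT replicate 1, WT replicate 2 or KO replicate 1, with log2 fold changes of 0.47, 0.46 and 0.46 and adjusted p of 0.0799, 0.0867 and 0.0724. It was lost too without WT replicate 2 and KO replicate 3 together (0.39, adjusted p = 0.167).

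Trap1 (chromosome 16 from 4039971 to 4077827, minus strand), the HSP90 family member of the matrix, had little spread in WT BAT, at 169, 168 and 162 CPM. In the KO mice it had 112, 117 and 126 CPM, all below the WT mice. The mean fell from 166 ± 3.62 to 118 ± 7.22 CPM, a log2 fold change of -0.49 ± 0.10 (SE, adjusted p = 0.00317). The last 500 bases of Trap1 overlap Dnase1, a nuclease gene on the opposite strand, by 54 bases, and whether the counting used strand is not given in the sources used here. Dnase1, named for this overlap after its values were seen, was lower too (log2 fold change -0.56, adjusted p = 0.0222).

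Lonp1 (chromosome 17 from 56614297 to 56626887, minus strand) encodes the LON protease of the matrix, which removes oxidised and misfolded proteins and binds mitochondrial DNA. It had 170.4, 175 and 156 CPM in the WT mice and 526, 405 and 481 in the KO mice, so that the lowest KO mouse was far above the highest WT mouse. The mean rose from 167 ± 9.81 to 471 ± 61.4 CPM, with a log2 fold change of 1.49 ± 0.13 (SE, 95% confidence interval 1.21 to 1.78, adjusted p = 2.58e-05). Among all genes tested, 10.7% had a more positive log2 fold change. Leaving out each mouse in turn gave 1.41 to 1.59.

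The partner subunits of the CLPXP protease, the peptidase CLPP and the unfoldase CLPX, both had less mRNA under TMM scaling. By library size alone, Clpx did not pass (log2 fold change -0.22, adjusted p = 0.245). Clpp (chromosome 17 from 56990305 to 56996188, plus strand) had 139, 114 and 124 CPM in WT BAT and 75.3, 72.5 and 81.6 in KO BAT. Its mean fell from 126 ± 12.4 to 76.5 ± 4.67 CPM (log2 fold change -0.72 ± 0.11 SE, adjusted p = 0.000814). Clpx (chromosome 9 from 65294260 to 65330658, plus strand) had 68.0, 75.2 and 97.0 CPM in WT BAT, the widest relative spread of the 10 genes there, and 46.8, 49.4 and 57.4 in KO BAT. Its mean fell from 80.1 ± 15.1 to 51.2 ± 5.53 CPM (log2 fold change -0.64 ± 0.15 SE, adjusted p = 0.00761). For both genes the highest KO mouse was below the lowest WT mouse.

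The subunits of the m-AAA protease, which removes unassembled inner membrane proteins and processes others, also had less mRNA under TMM scaling. Spg7 did not pass by library size alone (log2 fold change -0.17, adjusted p = 0.3165). Afg3l2 (chromosome 18 from 67404764 to 67449172, minus strand) had 190.4, 217 and 204 CPM in WT BAT and 117, 88.4 and 126 in KO BAT. Its mean fell from 204 ± 13.4 to 110.4 ± 19.5 CPM, with a log2 fold change of -0.88 ± 0.14 (SE, adjusted p = 0.00088), and 11.5% of the genes tested had a more negative one. Spg7 (chromosome 8 from 123062942 to 123097760, plus strand), which encodes paraplegin, had 165, 141 and 136 CPM in WT BAT and 100.4, 83.6 and 109 in KO BAT. Its mean fell from 147 ± 15.7 to 97.7 ± 12.9 CPM (log2 fold change -0.59 ± 0.13 SE, adjusted p = 0.00537). Neither gene overlapped between the genotypes, and KO replicate 2 was the lowest mouse for both.

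Htra2 (chromosome 6 from 83051266 to 83055273, minus strand) encodes the serine protease of the intermembrane space, which binds XIAP when it is released into the cytosol. It had 43.3, 32.7 and 36.0 CPM in WT BAT and 40.2, 46.3 and 35.2 in KO BAT. The groups overlapped (37.3 ± 5.47 and 40.6 ± 5.55 CPM), with a log2 fold change of 0.12 (95% confidence interval -0.23 to 0.47, adjusted p = 0.572). The row cannot be given to Htra2 alone. Its last 500 bases lie wholly within Loxl3, a lysyl oxidase gene on the opposite strand. The counts of the genes were nearly the same in each mouse, at 402, 308, 276, 366, 350 and 599 for Htra2 and 404, 331, 276, 402, 381 and 658 for Loxl3, in the order WT replicates 1 to 3 and KO replicates 1 to 3. Loxl3, named after its values were seen, did not pass the test either (log2 fold change 0.21, adjusted p = 0.265). Apart from Htra2 and Trap1, the members, 8 in all, had no other gene in their last 500 bases.

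The order of the levels changed with genotype. A 3′ count does not scale with the length of the mRNA, so CPM is given side by side as listed, though comparability between genes was not tested and the rows of Hspd1, Hspe1, Hspa9 and Htra2 may hold reads of other genes or copies. In WT BAT, Hspa9 was followed by Hspd1, Hspe1 and Afg3l2, each without overlap with the next, and then by Lonp1, Trap1, Spg7 and Clpp, whose neighbours overlapped, and by Clpx and Htra2. In KO BAT, Lonp1 stood after Hspa9 and Hspd1, above Hspe1 and every other protease, and Afg3l2 overlapped both Trap1 and Spg7. Summed over the 4 chaperones, the level was 2373, 2303 and 2661 CPM in WT and 3000.2, 2426 and 2999 in KO BAT, which overlapped. Summed over the 6 proteases it was 776, 755 and 754 in WT and 906, 745 and 890.1 in KO BAT, which also overlapped.

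The make-up of these sums differed. Lonp1 made up 21.9% of the protease CPM in WT BAT and 55.5% in KO BAT, as means of 3 mice with SDs of at most 2.62 percentage points for all 10 genes. Afg3l2 went from 26.8% to 13.0%, and Htra2 had 4.89% and 4.87%. Without Lonp1, the proteases summed to 606, 580.2 and 598 CPM in WT and 379.6, 340.2 and 409 in KO BAT, so that all KO mice were below all WT mice. Hspa9 went from 52.2% to 64.7% of the chaperone CPM, and Hspe1 from 14.7% to 8.77%. Without Hspa9, the chaperones summed to 1158, 1078 and 1268 CPM in WT and 1047, 925 and 989 in KO BAT, again without overlap. That difference holds for TMM scaling, and this sum was not taken under other scalings. By library size alone, the log2 fold changes were 0.39 for Hspd1, which passed as higher, -0.14 for Hspe1 and -0.07 for Trap1. Each gene left out was the only one of its group called higher, so a lower remainder follows in part from that choice. These sums are descriptions and carry no test.

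Ratios between partner genes within a mouse do not change when a library is scaled by a factor. The ratio of Hspd1 to Hspe1 was 1.65, 1.78 and 1.91 in WT and 2.69, 2.25 and 2.79 in KO BAT, a log2 difference of 0.53 without overlap. That of Hspd1 to Hspa9 was 0.507, 0.476 and 0.521 in WT and 0.349, 0.373 and 0.316 in KO BAT, a log2 difference of -0.54, also without overlap, and of -0.93 after quantile normalization. The ratios of the subunits within a protease overlapped. Clpx to Clpp was 0.490, 0.658 and 0.780 in WT and 0.622, 0.681 and 0.703 in KO BAT, where all 3 KO mice lay within the WT range. Afg3l2 to Spg7 was 1.15, 1.54 and 1.51 in WT and 1.16, 1.06 and 1.15 in KO BAT, which overlapped at WT replicate 1. An exact permutation test of 3 against 3 mice cannot give a two-sided p below 0.1, so none is given.

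**Figure D2:**
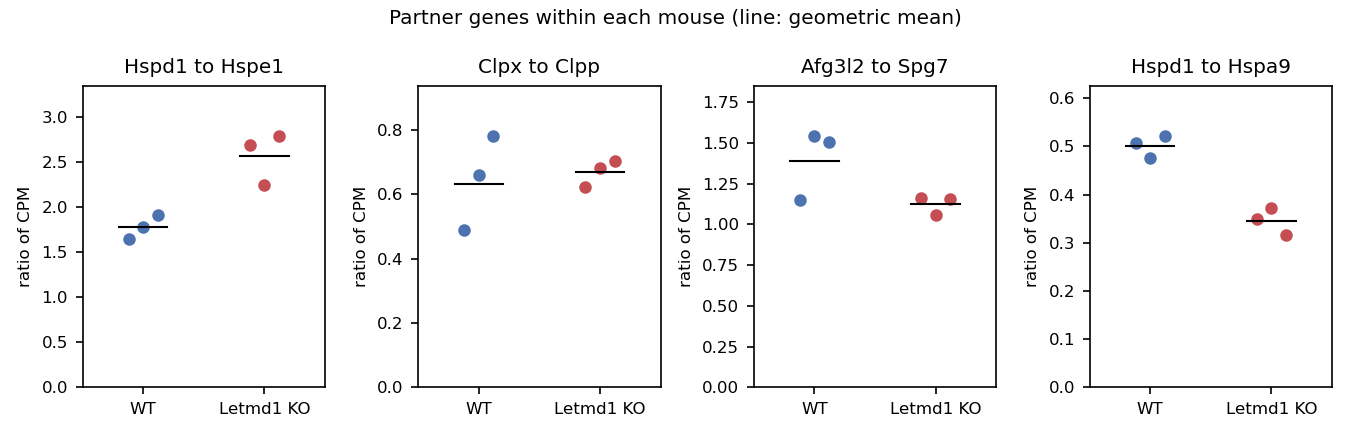
Ratio of CPM (vertical axes, linear, from 0) between partner genes within each mouse, with points for single mice and lines for the geometric mean of 3 WT (blue) or 3 Letmd1 KO (red) mice. The ratio of Hspd1 to Hspe1 is higher and that of Hspd1 to Hspa9 lower in every KO mouse, and the other 2 ratios overlap.

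The partners and helpers of these proteins were mostly lower. Of 10 co-chaperones of the matrix, 8 were lower, beside 22.3% of all genes tested, and 1 was higher, beside 23.7% (median log2 fold change -0.70). Dnajc19, a J protein of the import motor, fell from 76.8 ± 7.08 to 36.5 ± 5.62 CPM (log2 fold change -1.07, adjusted p = 0.000318). Grpel2, a nucleotide exchange factor of mitochondrial HSP70, was higher, like Hspa9, and went from 20.3 ± 2.65 to 28.7 ± 3.94 CPM (log2 fold change 0.50, adjusted p = 0.0286). Its call was lost by quantile normalization (adjusted p = 0.0553) and without WT replicate 1, WT replicate 3 or KO replicate 3 (adjusted p = 0.0659, 0.0766 and 0.127). The call was lost too with the replicate number as a block, and without WT replicate 2 and KO replicate 3 together.

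Of 5 processing peptidases, which remove targeting sequences from imported proteins, 4 were lower, beside 22.3% of all genes tested (median -0.60). Immp2l, a subunit of the inner membrane peptidase, had the largest change, from 94.6 ± 21.1 to 28.1 ± 4.40 CPM (log2 fold change -1.74, adjusted p = 8.28e-05). Its partner Immp1l (-0.63) and the processing peptidase subunits Pmpca (-0.60) and Pmpcb (-0.57) were lower too, with adjusted p of 0.00348, 0.00131 and 0.00377. Mipep, the intermediate peptidase, missed the threshold (log2 fold change -0.40, adjusted p = 0.059). Of 9 other mitochondrial proteases, 4 were lower, beside 22.3% of all genes tested, and 0 higher, beside 23.7% (median -0.35). They ran from Atp23, listed under its older symbol Xrcc6bp1, at a log2 fold change of -0.78 (adjusted p = 0.00929), to the presequence protease gene Pitrm1 at 0.25 (adjusted p = 0.125).

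Of 6 genes for inner membrane proteins that hold or regulate proteases, 5 were lower, beside 22.3% of all genes tested (median -0.69). The prohibitins, whose ring complex binds the m-AAA protease, were lower, as Afg3l2 and Spg7 were. Phb went from 235 ± 14.2 to 125 ± 14.5 CPM (log2 fold change -0.90) and Phb2 from 408 ± 22.7 to 231 ± 19.5 CPM (-0.82), with adjusted p of 0.000273 and 0.000331. Afg1l, an ATPase of the inner membrane listed as Lace1, was lower (log2 fold change -1.41, adjusted p = 3.95e-05), as were the stomatin-like scaffold gene Stoml2 (-0.56, adjusted p = 0.00774) and Maip1, an m-AAA partner listed as 9430016H08Rik (-0.50, adjusted p = 0.00675). Ghitm, a partner of AFG3L2, went from 1333 ± 91.9 to 1483 ± 293 CPM and did not pass the test (log2 fold change 0.15, adjusted p = 0.468), but passed as higher by quantile normalization (0.93, adjusted p = 0.00204). Over these 4 lists together, 21 of 30 genes were lower and 1 was higher, beside 22.3% and 23.7% of all genes tested.

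Among 9 described substrates and clients, 7 were lower, beside 22.3% of all genes tested, and 0 higher, beside 23.7% (median -0.63). Xiap, the inhibitor that HTRA2 binds, had the smallest change of the 9, a log2 fold change of -0.37 (adjusted p = 0.023). Of 12 genes that stand for mitochondrial content, 9 were lower and 1 higher (median -0.72), beside the same shares of all genes tested. They ran from Cycs, which encodes cytochrome c, at -1.32 (adjusted p = 7.79e-05) to the outer membrane channel gene Vdac3 at 0.66 (adjusted p = 0.00186). The median of the 10 chaperone and protease genes, -0.53, lay between that of the content genes and that of all genes tested.

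Chaperones outside mitochondria gave other counts. Of 18 cytosolic chaperones, 6 were higher, beside 23.7% of all genes tested, and 1 lower, beside 22.3% (median 0.11). They ran from Hspa1b, an inducible HSP70, at -0.54 (adjusted p = 0.217) to Hsp90aa1 at 0.64 (adjusted p = 0.00594). The number higher was 2 without WT replicate 1, WT replicate 3 or KO replicate 1, beside 20%, 22.4% and 18.8% of all genes tested. It was 3 without WT replicate 2 or KO replicate 3, beside 19.1% and 19.7%. It was 9 by library size alone, beside 45.4% of all genes tested. Relative to the mitochondrial content genes it was 16, beside 58.9%. Of 14 chaperones of the endoplasmic reticulum, 10 were higher, beside 23.7% of all genes tested, and 0 lower, beside 22.3% (median 0.66). Sdf2l1, which acts there with BiP, rose from 3.95 ± 1.11 to 30.0 ± 4.16 CPM (log2 fold change 2.94, adjusted p = 1.68e-05), and the co-chaperone gene Dnajc3 was at 0.01 (adjusted p = 0.947). Of 7 stress transcription factors, 5 were higher and 1 lower (median 1.45), beside the same shares of all genes tested. Atf3, a factor of the integrated stress response, rose from 1.74 ± 0.531 to 52.8 ± 3.09 CPM (log2 fold change 4.93, adjusted p = 1.27e-06). Cebpb, which also drives adipocyte gene expression, fell from 525 ± 83.1 to 239 ± 30.6 CPM (log2 fold change -1.13, adjusted p = 0.0003).

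**Figure D3:**
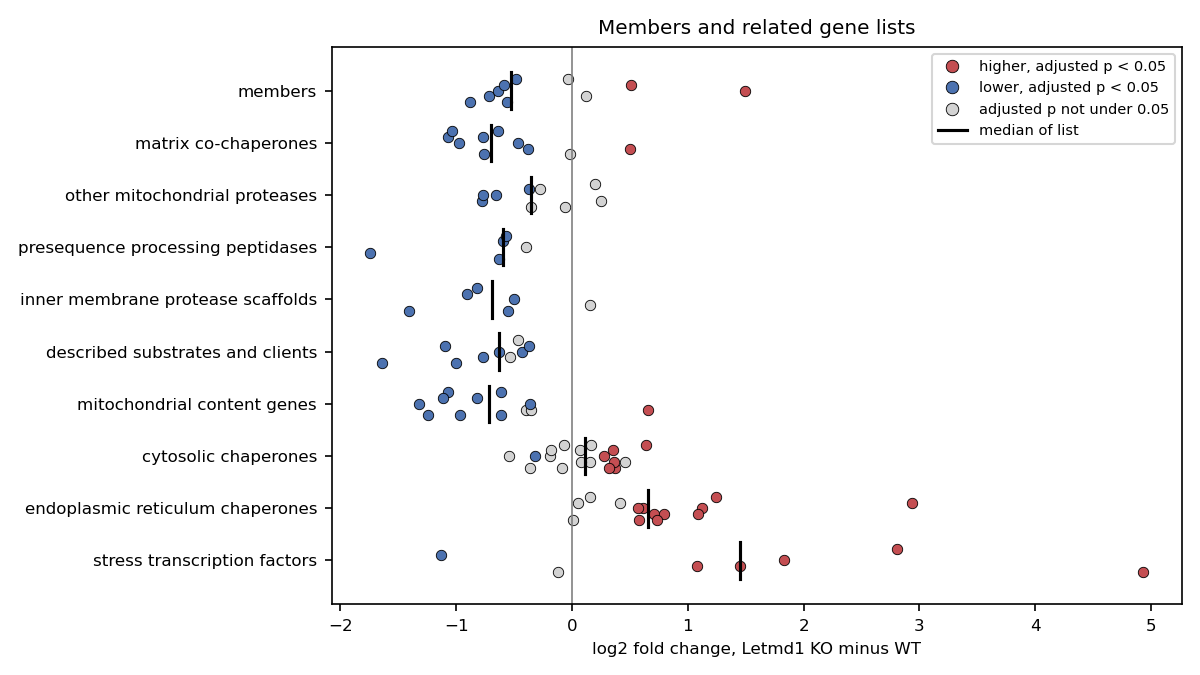
Log2 fold change of Letmd1 KO minus WT (horizontal axis) for each gene of the lists named at the left, with points coloured by the call of edgeR's quasi-likelihood test and a line at the median of each list. The mitochondrial lists lie mostly left of 0 and the endoplasmic reticulum chaperones and stress factors mostly right. Scaled by library size alone, the median of the other mitochondrial proteases is 0.07 in place of -0.35. Relative to the mitochondrial content genes, the medians of the members and of 4 other mitochondrial lists turn positive.

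How the libraries were scaled decided several of the calls. Library size alone, without TMM, moved the median over all genes tested to a log2 fold change of 0.45. With it, 4 of the 10 genes were higher, beside 45.4% of all genes tested, and 2 were lower, beside 10.5%. Hspd1 (0.39, adjusted p = 0.0313) and Htra2 (0.54, adjusted p = 0.0132) joined Lonp1 (1.91) and Hspa9 (0.94), and Clpp (-0.29) and Afg3l2 (-0.46) remained lower. Hspe1 (-0.14), Trap1 (-0.07), Clpx (-0.22) and Spg7 (-0.17) no longer passed. Set against the median of each fit, the changes were nearly the same under both scalings, for instance -0.60 and -0.60 for Hspe1, -0.07 and -0.07 for Hspd1, and 1.46 and 1.46 for Lonp1. Both scale each library by 1 factor, which shifts all genes nearly alike, so this likeness follows from the method. Quantile normalization with limma, the kind of normalization the study names, gave a median of -0.05 over all genes, 3 genes higher, beside 20.9% of all, and 5 lower, beside 23.7%. Under it Hspd1 passed as higher (0.47, adjusted p = 0.0176), Hspa9 had a log2 fold change of 1.39, and Hspe1 did not pass (-0.23, adjusted p = 0.0968). Set against the median of that fit, Hspe1 was at -0.18, Hspd1 at 0.52 and Lonp1 at 1.85, so there the changes were not the same. Scaled to the mitochondrial content genes, where the median of all genes was 0.73, 4 of the 10 genes were higher and 0 were lower, beside 58.9% and 6.03% of all genes tested. The median of the 10 genes was -0.11 by library size alone, -0.26 by quantile normalization and 0.17 relative to the content genes. Lonp1 and Hspa9 passed as higher under each of these 4 scalings.

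**Figure D4:**
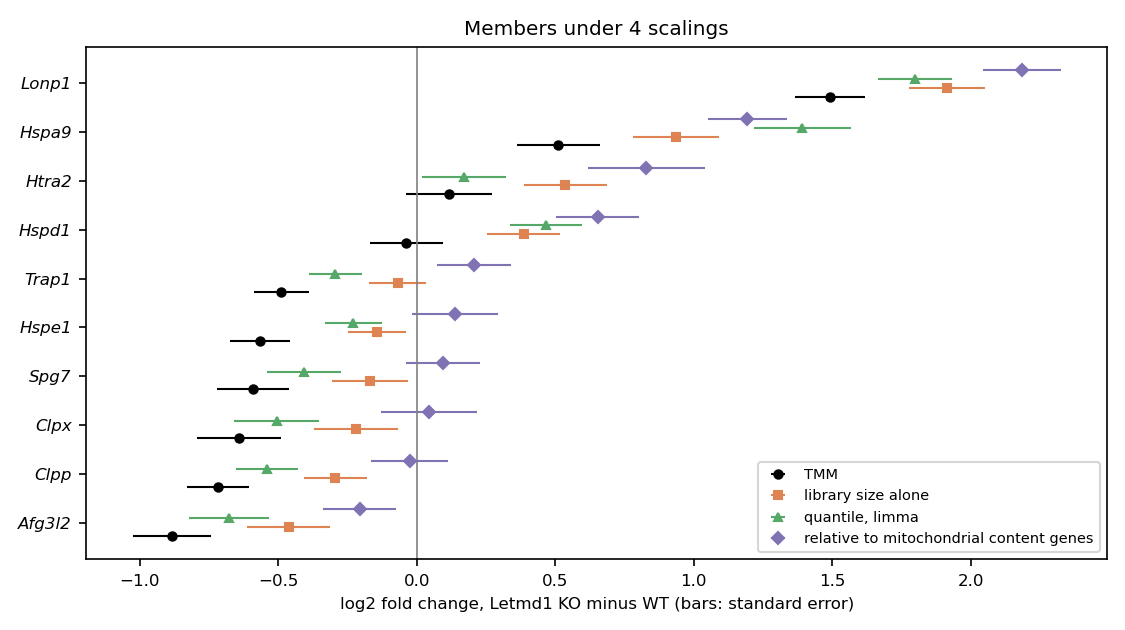
Log2 fold change of Letmd1 KO minus WT (horizontal axis) of the 10 genes under 4 scalings, with bars for the standard error. Lonp1 and Hspa9 lie right of 0 under all 4, Afg3l2 and Clpp left of 0 under all 4, and Hspd1, Hspe1, Trap1, Clpx and Spg7 change side with the scaling.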

How the data were processed

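BAT RNA of 6 mice was sequenced as QuantSeq 3′ mRNA libraries (single-end, 75 bases). The authors aligned reads with Bowtie2 and counted unique and multiple alignments with bedtools, on mm10 per the submitters' processing notes, and deposited whole-number read counts per gene without normalization. Versions, gene annotation and use of strand are not given in the sources used here. Labels gave 3 mice a genotype. Of 23282 rows, 5588 had no counts.

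The count test was that of edgeR 4.0.16 in R 4.3.3 (TMM, filter at a minimum count of 10 and total of 15, quasi-likelihood test, Benjamini-Hochberg adjustment over 12995 rows, threshold 0.05), tested on simulated data first. Every adjusted p is from this test unless limma 3.58.1 or DESeq2 1.42.0 is named. A 3-count floor and chi-square values cover counting error only. Replicate numbers were not taken to pair the mice. Spans and overlaps came from GENCODE vM21 (GRCm38, the assembly of mm10).

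The genes and lists were chosen with earlier results of these data known, so no set test was run. Named are the 10 genes, the extremes of each pathway list (all genes of lists with up to 6), Letmd1, Ucp1 and the most abundant marker of each cell type. An item that this rule names is not reported here. Alternatives were other scalings, tools, filters, a replicate block, omission of Rn45s and of each mouse. Protein sequences were not used here.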

Additional observations from a re-analysis of the deposited data

How the results depend on the processing

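Lonp1 was higher under every alternative run. Of the 10 genes, 1 to 2 were higher and 6 lower with each mouse left out in turn, where the call lost was that of Hspa9. Scaled by library size alone 4 were higher and 2 lower, relative to the mitochondrial content genes 4 and 0, and without WT replicate 2 and KO replicate 3, an alternative added after seeing the data, 1 was higher. Of all genes tested, 3082 were higher and 2896 lower in the fit reported, against 5899 and 1368 by library size, 7652 and 784 relative to content genes, 1977 and 1912 without those 2 mice, and 2494 to 2999 and 2348 to 2869 with 1 mouse left out. The share of calls that were higher was 51.6%, 81.2% by library size and 90.7% relative to content genes.

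Of the 30 genes of the 4 mitochondrial lists, the number higher was 6 by library size, 7 relative to content genes, 0 without those 2 mice and 0 to 1 with 1 mouse left out. The number lower was 21, and 10, 3, 14 and 18 to 20 by library size, relative to content genes, without those 2 mice and with 1 mouse left out. With the replicate number as a block, the number higher was 0 and the calls of the 10 genes, 2 higher and 6 lower, were the same. The labels do not say whether the numbers pair the mice. Correlations of same-numbered mice were 0.069, -0.111 and -0.087, and those of other numbers ran from -0.093 to 0.19, which cannot decide it. Under the block, 2713 genes were lower and 2886 higher. Of all genes tested, 45.4% were higher and 10.5% lower by library size, and 58.9% and 6.03% relative to content genes. Without those 2 mice, 15.3% were higher and 14.8% lower. With 1 mouse left out, 18.8% to 22.4% were higher and 17.7% to 21.4% lower.

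Signs that turned were those of Hspd1 (0.39 by library size, 0.47 by quantile normalization, 0.015 with a mean of at least 50 counts, 0.65 relative to content genes, -0.12 to 0.049 with 1 mouse left out), Mipep (0.024 by library size), Xiap (0.051 by library size), Hba-a1 (0.21 by library size, 0.59 by quantile normalization, 0.48 relative to content genes, -0.43 to 0.010 with 1 mouse left out), Dnajc3 (-0.0053 by DESeq2, -0.0005 without those 2 mice, -0.035 to 0.033 with 1 mouse left out), and Ghitm (-0.044) and S100b (-0.049) without those 2 mice, with 0.014 to 0.30 and 0.094 to 0.52 where 1 mouse was left out. Relative to content genes, Hspe1 was at 0.14, Trap1 at 0.21, Clpx at 0.044, Spg7 at 0.094, Pmpca at 0.097, Pmpcb at 0.12, Mipep at 0.29, Immp1l at 0.0595, Stoml2 at 0.15, Maip1 at 0.20, Xiap at 0.34 and Hspa1b at 0.17. The median of the 10 genes themselves turned relative to content genes (0.17) and kept its sign by library size (-0.11). That of the other mitochondrial proteases turned by library size (0.0715) and relative to content genes (0.33). Relative to content genes, the medians of the processing peptidases (0.097), the inner membrane scaffolds (0.011) and the substrates (0.061) turned too. The scaling shifts all genes by construction.

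The log2 difference of Hspd1 to Hspe1 was 0.70 and of Hspd1 to Hspa9 -0.93 by quantile normalization, and 0.47 to 0.62 and -0.59 to -0.47 with 1 mouse left out. For Clpx to Clpp it was -0.10 to 0.23 and turned without WT replicate 1. Afg3l2 to Spg7 gave -0.44 to -0.23. The log2 KO over WT sum of the chaperones was 0.20, 0.61 by library size, 0.89 relative to content genes and 0.14 to 0.30 with 1 mouse left out. That of the proteases was 0.15, 0.57, 0.84 and 0.097 to 0.24. Each of the 10 genes had 276 or more counts per mouse. With 3 mice a genotype, the p-values set the genotype difference against the spread between mice, estimated with help from all genes tested.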
